A study of Homo sapiens with 6 samples.

Results

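Follistatin, inhibin and activin genes were followed in KGN cells, a human granulosa-like tumour line, after siRNA against the long noncoding RNA SNHG5. The genes were chosen by name: the extracellular binders FST and FSTL3, the follistatin-like gene FSTL1, the inhibin and activin subunits INHA, INHBA, INHBB and INHBE, and the activin receptors ACVR1B, ACVR2A and ACVR2B. All 10 were found among the 20030 gene names of the deposited tables, and 9 had enough counts to be tested. Messenger RNA was sequenced (SMARTER mRNA-seq kit) 48 h after transfection in 3 SiSNHG5 libraries (siRNA to SNHG5, genotype given as SNHG5 knockdown) and 3 SiNC libraries (negative control siRNA, genotype given as WT). The comparison addressed how transcripts of KGN cells differ after knockdown of SNHG5. All 6 libraries came from 1 tumour line, the number and sequence of the siRNAs are not given in the sources used here, and the level of SNHG5 itself was not analysed here. With SiSNHG5, FST was 2.67-fold lower, INHBB was 2.14-fold higher, and FSTL1 and FSTL3 differed by less than 1.2-fold, while INHBA and the 3 receptors did not pass the test.

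Activins are secreted dimers of β subunits, encoded by INHBA, INHBB and related genes, and inhibins pair a β subunit with the α subunit encoded by INHA. Activin binds a type II receptor (ACVR2A or ACVR2B), which recruits and phosphorylates a type I receptor (ACVR1B), and the receptors then phosphorylate SMAD2 and SMAD3. Follistatin (FST) and its relative FSTL3 bind activin outside the cell and block its access to the receptors, and inhibin competes for the type II receptors. Granulosa cells of the ovarian follicle are a main source of inhibin, activin and follistatin, through which the ovary and the pituitary regulate follicle-stimulating hormone.

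Because the title of the series names miR-92a-3p, the mature miRNA and the letters that match it are shown. The first line is the mature miRNA (RefSeq, GRCh38.p14) with its seed, bases 2 to 8, in capitals. The second is the stretch of the FST 3′ UTR that holds the complement of the seed, in capitals (chr5:53487048-53487070, plus strand, GRCh38, GENCODE v29), 1023 bases into a 3′ UTR of 1101 bases.
hsa-miR-92a-3p: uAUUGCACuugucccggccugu
FST 3′ UTR: atgtaaatGTGCAATgtatataa
FST was the 1 gene of the 10 with GTGCAAT in an annotated 3′ UTR. The match is a description of letters, not of binding. Across all tested genes with an annotated 3′ UTR, 1719 (14.0%) held the same word, and 18.6% of these were lower with SiSNHG5, against 20.3% of the 10569 genes without it. As counts, 319 of the 1719 genes with the word were lower and 390 were higher. Of the 10569 genes without it, 2141 were lower and 2123 were higher. The median log2 fold change was 0.02 with the word and -0.01 without it.

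Total counts were 22088913, 19869165 and 19417645 in SiSNHG5 replicates 1, 2 and 3, and 20479618, 20353451 and 18232634 in SiNC replicates 1, 2 and 3. A count of 3, used as the floor of detection, corresponded to 0.136 to 0.165 CPM (counts scaled to library size). The library of SiSNHG5 replicate 2 was the most distant of its group: chi-square divided by its degrees of freedom was 8.66 and 8.89 in its pairs, 1.92 between SiSNHG5 replicates 1 and 3, and 3.11 to 4.42 among the SiNC libraries. The labels do not say whether replicates were separate cultures, so each p measures the spread between these samples only. Tests covered 12508 genes, and 5026 (40.2%) passed edgeR's quasi-likelihood test at a Benjamini-Hochberg adjusted p under 0.05, 2538 higher (20.3%) and 2488 lower (19.9%) with SiSNHG5. Higher calls made up 50.5% of the passing genes with TMM scaling, 39.9% with upper quartile scaling and 59.7% with FPKM. In 49.7% of tested genes the groups had separate ranges of CPM. Among the 10 genes, 2 passed higher (FSTL3 and INHBB), 2 passed lower (FST and FSTL1), 5 did not pass and 1 (INHA) was below the count filter. The share that passed, 4 of 9 tested, is close to the share over all genes, and the median log2 fold change of the 9 was -0.13, beside -0.01 for all tested genes.

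**Figure D1:**
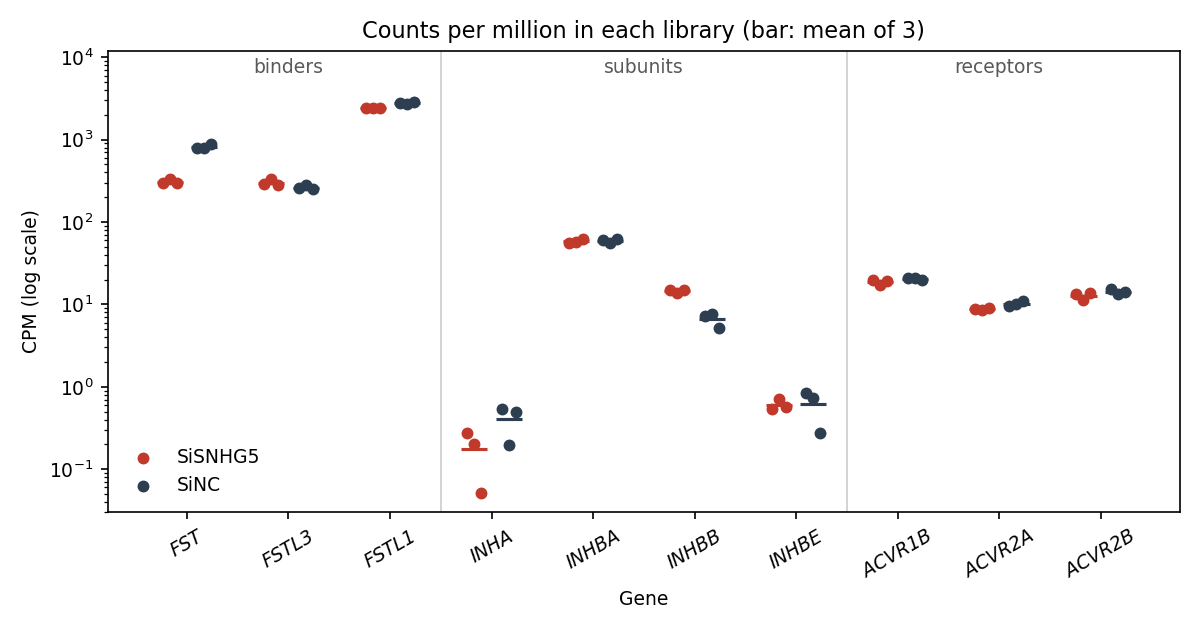
CPM on a log axis of the 10 follistatin, inhibin and activin genes, with a point for each library (3 SiSNHG5, 3 SiNC) and a bar at each group's mean. FST points lie lower and INHBB points higher with SiSNHG5, with no overlap, and INHA and INHBE lie under 1 CPM in every library.

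FST encodes follistatin, the main activin-binding protein, and had the smallest p of the 10 genes. It lies on chromosome 5 from 53480409 to 53487134 on the plus strand (GRCh38, GENCODE v29) and overlaps no other annotated gene. FST had 296, 329 and 301 CPM in SiSNHG5 replicates 1, 2 and 3, and 802, 787 and 873 CPM in SiNC replicates 1, 2 and 3. Every SiSNHG5 library was far below every SiNC library, and the replicates of each group lay close together. The means were 309 ± 17.98 CPM with SiSNHG5 and 821 ± 46.0 CPM with SiNC (SD, n = 3 each), from 18929 and 48380 counts. The log2 fold change was -1.42 ± 0.06 (SE) and its adjusted p 1.05e-12 by the quasi-likelihood test of edgeR with Benjamini-Hochberg adjustment. An exact permutation test of the 6 values of log2(CPM + 0.5) (2-sided) gave p = 0.1, the smallest that 3 against 3 libraries allow. By p FST ranked 5 of the 12508 tested genes, and 48 genes that passed had a lower log2 fold change. Without SiSNHG5 replicate 2 the log2 fold change of FST was -1.46, and over the 17 alternatives run it lay between -1.46 and -1.37. In bulk RNA, fewer cells that express a gene and less of its RNA per cell cannot be told apart.

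FSTL3, the close relative of follistatin that also binds activin, moved in the other direction by a much smaller amount. The gene is on chromosome 19 from 676365 to 683399 on the plus strand. FSTL3 had 289.9, 331 and 278 CPM in SiSNHG5 replicates 1, 2 and 3, and 257, 278 and 249 CPM in SiNC replicates 1, 2 and 3. SiSNHG5 replicate 2 was the highest library, and SiSNHG5 replicate 3 lay only just above SiNC replicate 2. The means were 300 ± 27.7 CPM with SiSNHG5 and 261 ± 14.7 CPM with SiNC (SD, n = 3 each). FSTL3 had a log2 fold change of 0.19 ± 0.06 (SE) at an adjusted p of 0.0180 by the quasi-likelihood test of edgeR with Benjamini-Hochberg adjustment. This call rested on single libraries and on the scaling. Without SiNC replicate 1 FSTL3 had 0.18 (adjusted p = 0.0636, edgeR) and without SiNC replicate 3 it had 0.16 (adjusted p = 0.107, edgeR). Without SiSNHG5 replicate 2 its log2 fold change was 0.12 (adjusted p = 0.0326, edgeR), with upper quartile scaling 0.15 (adjusted p = 0.0655, edgeR), and with the trend on transcript GC content removed 0.31 (adjusted p = 2.54e-04, edgeR).

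FSTL1, a secreted glycoprotein with a follistatin-like domain, had the highest CPM and FPKM of the 10 genes. Its gene (chromosome 3, 120392293 to 120451253, minus strand) overlaps AC063952.1 on the opposite strand and hosts MIR198. FSTL1 had 2418, 2445 and 2418 CPM in SiSNHG5 replicates 1, 2 and 3, and 2765, 2737 and 2858 CPM in SiNC replicates 1, 2 and 3. The groups did not overlap, and the gap between them was larger than the spread within either. FSTL1 averaged 2427 ± 15.5 CPM with SiSNHG5 and 2786 ± 63.4 CPM with SiNC (SD, n = 3 each), a 1.15-fold lower level. Its log2 fold change was -0.20 ± 0.04 (SE) and its adjusted p 7.90e-04 by the quasi-likelihood test of edgeR with Benjamini-Hochberg adjustment.

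**Figure D2:**
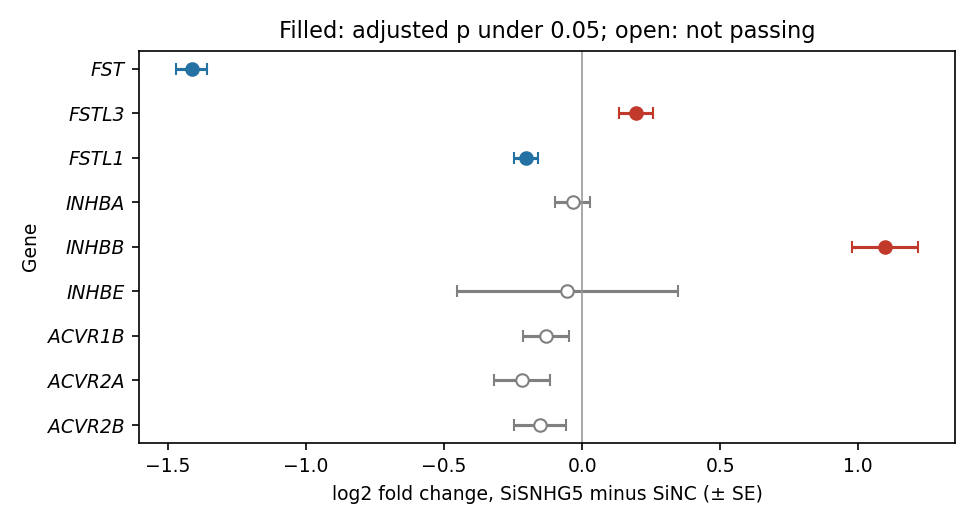
Log2 fold change (SiSNHG5 minus SiNC, edgeR) of the 9 tested genes with bars of ± 1 SE; filled points passed at an adjusted p under 0.05 and open points did not. FST at -1.42 and INHBB at 1.10 lie far from 0, and the other 7 lie between -0.22 and 0.19.

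Of the 2 more abundant β subunit genes, INHBB passed the test and INHBA did not. INHBB encodes the βB subunit, the building block of activin B and inhibin B, and lies on chromosome 2 from 120346143 to 120351808 on the plus strand. INHBB had 14.9, 13.6 and 14.9 CPM in SiSNHG5 replicates 1, 2 and 3, and 7.18, 7.71 and 5.21 CPM in SiNC replicates 1, 2 and 3. The lowest SiSNHG5 library was well above the highest SiNC library, and SiNC replicate 3 was the lowest of all 6. These values rest on 329, 270 and 289 counts in SiSNHG5 replicates 1, 2 and 3, and on 147, 157 and 95 counts in SiNC replicates 1, 2 and 3. INHBB averaged 14.5 ± 0.751 CPM with SiSNHG5 and 6.70 ± 1.32 CPM with SiNC (SD, n = 3 each). The log2 fold change of INHBB was 1.10 ± 0.12 (SE) and its adjusted p 6.65e-07 by the quasi-likelihood test of edgeR with Benjamini-Hochberg adjustment. Among the genes that passed, 42 had a higher log2 fold change than INHBB. Over the 17 alternatives run it stayed between 0.90 and 1.21, the lowest on the log2(FPKM + 1) scale, which understates changes of low genes, and without SiNC replicate 3 it was 0.95.

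INHBA encodes the βA subunit of activin A and inhibin A. The gene (chromosome 7, 41667168 to 41705834, minus strand) overlaps the antisense gene INHBA-AS1. INHBA had 56.4, 56.4 and 61.6 CPM in SiSNHG5 replicates 1, 2 and 3, and 60.0, 55.5 and 62.6 CPM in SiNC replicates 1, 2 and 3. The groups overlapped. INHBA had a log2 fold change of -0.03 ± 0.06 (SE) at an adjusted p of 0.705 by the quasi-likelihood test of edgeR with Benjamini-Hochberg adjustment, and over the alternatives its value lay between -0.10 and 0.01. The difference between the changes of INHBB and INHBA was not tested. Whether counting used the strand is not given in the sources used here, so reads of INHBA and INHBA-AS1 cannot be told apart, and the same holds for INHA and OBSL1, ACVR2A and ORC4, and ACVR2B and ACVR2B-AS1.

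The promoter windows of these 2 genes are shown because INHBB passed the test and INHBA did not. Each runs from base -250 to base -21 relative to the RefSeq start (GRCh38.p14) and is written 5′ to 3′ on the strand of the gene, INHBB at chr2:120345886-120346115 (plus) and INHBA at chr7:41703111-41703340 (minus). The INHBB window lies upstream of the gene as placed by GENCODE v29, which starts at 120346143. The INHBA window lies inside the GENCODE v29 gene, whose 5′ end is at 41705834, so a further start upstream is annotated there. Capitals mark matches, on either strand, to GGGCGG (GC box), GATAA (GATA), TGANGTCA (CRE-like), AGGTCA (nuclear receptor) and CAGAC (SMAD box).
INHBB: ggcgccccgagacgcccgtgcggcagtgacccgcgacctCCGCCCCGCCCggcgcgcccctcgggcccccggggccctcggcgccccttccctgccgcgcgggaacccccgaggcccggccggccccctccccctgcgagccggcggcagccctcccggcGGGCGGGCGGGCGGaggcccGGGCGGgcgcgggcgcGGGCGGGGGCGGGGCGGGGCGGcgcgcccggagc
INHBA: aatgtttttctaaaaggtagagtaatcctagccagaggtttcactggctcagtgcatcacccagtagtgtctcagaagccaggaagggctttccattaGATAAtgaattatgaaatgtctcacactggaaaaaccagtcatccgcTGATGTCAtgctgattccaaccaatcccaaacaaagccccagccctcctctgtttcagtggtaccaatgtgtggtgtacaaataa
The INHBB window was 90.0% GC and held 10 matches to GGGCGG, some of them overlapping, and no match to the other motifs. The INHBA window was 43.9% GC and held 1 match to TGANGTCA and 1 to GATAA. Over 35116 RefSeq promoter windows of the same length the median GC content was 57.8%, and 39.96% held GGGCGG, 19.6% GATAA, 6.22% TGANGTCA, 11.3% AGGTCA and 35.8% CAGAC. Windows were matched for 9 of the 10 genes. These matches describe letters in the window and say nothing on binding.

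INHA, which encodes the α subunit that makes a β subunit dimer into an inhibin, was near the floor of detection. It is placed on chromosome 2 from 219569162 to 219575713 on the plus strand and overlaps OBSL1 on the opposite strand, a gene with 2664 counts over the SiSNHG5 libraries and 3383 over the SiNC libraries. INHA had 6, 4 and 1 counts in SiSNHG5 replicates 1, 2 and 3, and 11, 4 and 9 counts in SiNC replicates 1, 2 and 3. The groups overlapped, and the gene did not pass the filter for testing. The summed counts were 11 with SiSNHG5 and 24 with SiNC, a ratio of 0.441 scaled to library size (95% interval from 0.195 to 0.935, exact for counting error alone). Over the libraries, an exact permutation test of log2(CPM + 0.5) (2-sided) gave p = 0.3, where 3 against 3 libraries cannot go below 0.1. No difference in INHA can therefore be called or excluded here.

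INHBE encodes the βE subunit, known mainly from liver, and lies on chromosome 12 from 57452323 to 57459280 on the plus strand. INHBE had 12, 14 and 11 counts in SiSNHG5 replicates 1, 2 and 3, and 17, 15 and 5 counts in SiNC replicates 1, 2 and 3. The SiNC libraries spanned the SiSNHG5 ones, and each group summed to 37 counts. INHBE had a log2 fold change of -0.05 ± 0.40 (SE) at an adjusted p of 0.927 by the quasi-likelihood test of edgeR with Benjamini-Hochberg adjustment. Its ratio of counts scaled to library size was 0.962, with an exact 95% interval of 0.593 to 1.56 for counting error only.

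None of the 3 activin receptor genes passed edgeR with TMM scaling alone or DESeq2, and all 3 had negative log2 fold changes. Before adjustment, ACVR2A was the 1 of the 3 under the threshold of 0.05 in the edgeR test. ACVR1B, the type I receptor ALK4 (chromosome 12, 51951667 to 51997078, plus strand), had 19.9, 17.4 and 19.1 CPM in SiSNHG5 replicates 1, 2 and 3, and 21.1, 20.8 and 19.6 CPM in SiNC replicates 1, 2 and 3. The groups overlapped, and the log2 fold change of ACVR1B was -0.13 ± 0.08 (SE; adjusted p = 0.220, the quasi-likelihood test of edgeR with Benjamini-Hochberg adjustment). ACVR2B, a type II receptor (chromosome 3, 38453851 to 38493142, plus strand), had 13.4, 11.4 and 13.6 CPM in SiSNHG5 replicates 1, 2 and 3, and 15.2, 13.2 and 14.2 CPM in SiNC replicates 1, 2 and 3. SiSNHG5 replicate 2 was the lowest library for both genes, and the log2 fold change of ACVR2B was -0.15 ± 0.09 (SE; adjusted p = 0.212, the quasi-likelihood test of edgeR with Benjamini-Hochberg adjustment).

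ACVR2A, the other type II receptor (chromosome 2, 147844517 to 147930826, plus strand), was the closest of the 3 to the threshold. ACVR2A had 8.87, 8.61 and 8.96 CPM in SiSNHG5 replicates 1, 2 and 3, and 9.57, 10.2 and 10.97 CPM in SiNC replicates 1, 2 and 3. The groups did not overlap, but the gap between the nearest libraries was smaller than the range of the SiNC libraries. Its log2 fold change was -0.22 ± 0.10 (SE) and its adjusted p 0.0905 by the quasi-likelihood test of edgeR with Benjamini-Hochberg adjustment. It passed as lower with upper quartile scaling (-0.26, adjusted p = 0.0449, edgeR), with the trend on transcript GC content removed (-0.29, adjusted p = 0.0202, edgeR) and with limma on log2(FPKM + 1) (-0.20, adjusted p = 0.0275). Over the 10 genes, CPM did not overlap between groups in 5 (FST, FSTL1, FSTL3, INHBB and ACVR2A), 5 of 9 tested, beside 49.7% of all tested genes.

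Levels of different genes were compared by FPKM, fragments per kilobase of transcript and library size, which takes length into account. With SiSNHG5 the order was FSTL1 at 348 ± 2.40 FPKM, FSTL3 at 130 ± 15.2, FST at 64.3 ± 3.03, INHBA at 5.39 ± 0.371, INHBB at 4.77 ± 0.103, ACVR1B at 2.81 ± 0.159, ACVR2A at 1.28 ± 0.1004, ACVR2B at 0.594 ± 0.0802, INHBE at 0.210 ± 0.0411 and INHA at 0.120 ± 0.0689 FPKM (SD, n = 3). With SiNC FSTL1 was again highest, at 403 ± 3.41 FPKM, but FST at 173 ± 10.7 FPKM stood above FSTL3 at 106 ± 6.78, and ACVR1B at 2.94 ± 0.115 stood above INHBB at 2.10 ± 0.378 FPKM (SD, n = 3 each). INHBA had 5.72 ± 0.280, ACVR2A 1.62 ± 0.0460 and ACVR2B 0.680 ± 0.0580 FPKM with SiNC, and INHA at 0.218 ± 0.0678 and INHBE at 0.198 ± 0.0935 FPKM overlapped there (SD, n = 3 each). With SiSNHG5 no neighbours in the order overlapped, and INHBA at 5.12 FPKM or more stood narrowly above INHBB at 4.87 FPKM or less; with SiNC no other pair overlapped. By rank within a library, with 1 the highest FPKM of all gene names, FST stood at 719 to 741 with SiSNHG5 and at 222 to 252 with SiNC.

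The balance between binders and subunits was described by ratios of FPKM in each library, with no test. FST over FSTL3 was 0.494, 0.460 and 0.536 in SiSNHG5 replicates 1, 2 and 3, and 1.69, 1.46 and 1.73 in SiNC replicates 1, 2 and 3. By FPKM the binder with the higher level was thus FSTL3 in every SiSNHG5 library and FST in every SiNC library. By CPM, FST over FSTL3 was 1.02, 0.995 and 1.08 in SiSNHG5 replicates 1, 2 and 3, and 3.12, 2.84 and 3.51 in SiNC replicates 1, 2 and 3. The ratio was lower with SiSNHG5 on both scales, but which binder stood higher with SiSNHG5 depended on the scale, although the annotated transcripts, of 2538 bases for FST and 2542 for FSTL3, are nearly equal in length. FST over the sum of INHBA and INHBB was 6.19, 6.93 and 5.91 in SiSNHG5 replicates 1, 2 and 3, and 20.7, 21.0 and 24.7 in SiNC replicates 1, 2 and 3, a log2 difference of -1.80 that comes to -1.55 when CPM replace FPKM. With FSTL3 added to FST, the ratio was 18.7, 21.97 and 16.9 in SiSNHG5 replicates 1, 2 and 3, and 32.9, 35.5 and 39.0 in SiNC replicates 1, 2 and 3, a log2 difference of -0.90. Counting FSTL3 thus gave a smaller difference between the groups, and in both groups the RNA of binders stood above that of the β subunits.

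INHBB over INHBA was 0.911, 0.912 and 0.838 in SiSNHG5 replicates 1, 2 and 3, and 0.366, 0.449 and 0.291 in SiNC replicates 1, 2 and 3. By FPKM the β subunit RNAs were therefore closer to parity with SiSNHG5, though INHBA stayed the higher in each library. By CPM, INHBB over INHBA was 0.264, 0.241 and 0.242 in SiSNHG5 replicates 1, 2 and 3, and 0.120, 0.139 and 0.0833 in SiNC replicates 1, 2 and 3. The ratio was higher with SiSNHG5 on both scales, but how near it came to parity depended on the scale. Again by FPKM, FST over INHBA alone was 11.8, 13.2 and 10.9 in SiSNHG5 replicates 1, 2 and 3, and 28.3, 30.5 and 32.0 in SiNC replicates 1, 2 and 3, a log2 difference of -1.34. INHA over the sum of INHBA and INHBB was at most 0.0174 with SiSNHG5 and at most 0.0349 with SiNC, and rests on the few INHA counts given above.

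**Figure D3:**
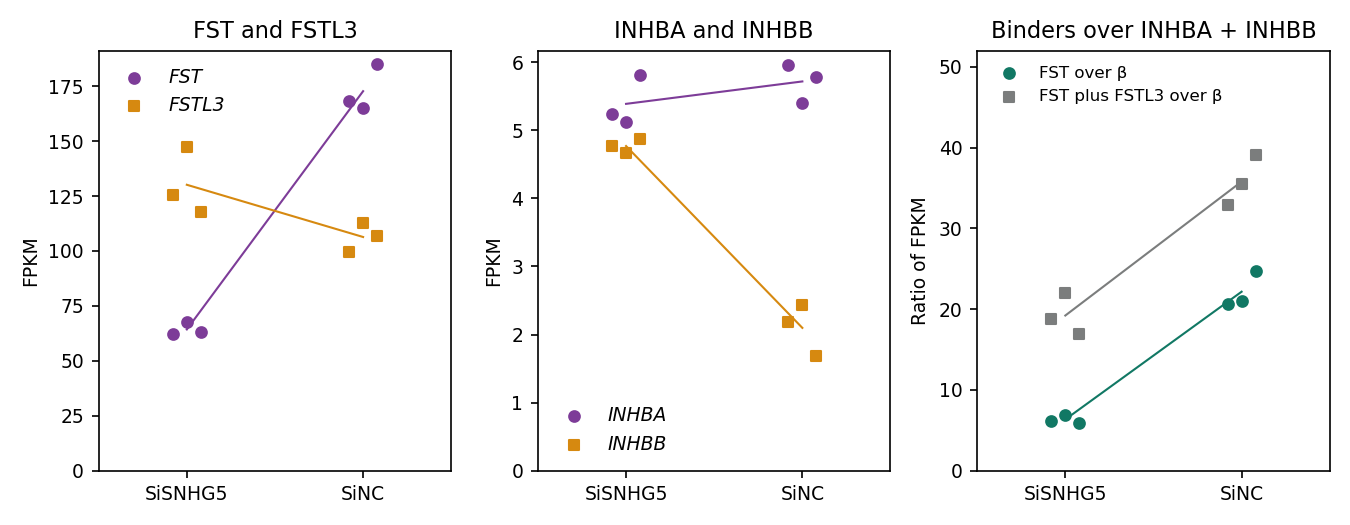
FPKM of FST and FSTL3 (left) and of INHBA and INHBB (middle), and the ratio of FST, or FST plus FSTL3, to the summed FPKM of INHBA and INHBB (right; β in the legend), with 3 SiSNHG5 libraries left of 3 SiNC libraries in each panel and lines joining group means. FST lies below FSTL3 with SiSNHG5 and above it with SiNC, and INHBB is nearer to INHBA with SiSNHG5.

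Beyond the 10 genes, 49 other genes of the activin pathway were listed, of which 37 were tested, 7 were higher, 17 lower and 13 did not pass. The median log2 fold change of the 37 was -0.13, beside -0.01 over all tested genes. Of all tested genes 40.2% passed, 20.3% higher and 19.9% lower. No list was tested as a set. Among the other ligands, 4 of 7 were tested. TGFB2, a TGF-β ligand, was lower at 136 ± 5.52 CPM with SiSNHG5 and 208 ± 4.12 CPM with SiNC (log2 fold change -0.62, adjusted p = 2.41e-08, edgeR). TGFB1 was higher by a small amount, at 107 ± 2.78 CPM with SiSNHG5 and 96.7 ± 2.61 CPM with SiNC (0.14, adjusted p = 0.0431, edgeR), and did not pass without any 1 of 5 of the libraries, all but SiSNHG5 replicate 2, with upper quartile scaling (0.10, adjusted p = 0.151, edgeR) or with DESeq2 (adjusted p = 0.0512). It had a larger change with log2(FPKM + 1) (0.24, adjusted p = 0.00573, limma) and with the trend on transcript GC content removed (0.25, adjusted p = 6.06e-04, edgeR). GDF11, an activin-like ligand, had 0.09 and TGFB3 had -0.31, and neither passed. TGFB3 passed as lower with upper quartile scaling (-0.35, adjusted p = 0.0384, edgeR) and without SiSNHG5 replicate 1 (-0.40, adjusted p = 0.0486, edgeR). NODAL had 0 counts, INHBC had 1 count with SiSNHG5 and 0 with SiNC, and MSTN, which encodes myostatin, a ligand that follistatin also binds, had 2 counts with SiSNHG5 and 4 with SiNC.

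Of the other receptors and co-receptors, 9 of 10 were tested, 2 higher and 5 lower, beside 20.3% higher and 19.9% lower over all tested genes. ACVR1C, the type I receptor ALK7 used by activin B, averaged 0.609 ± 0.136 CPM with SiSNHG5 and 1.58 ± 0.243 CPM with SiNC, from 37 and 93 counts (log2 fold change -1.38 ± 0.29 SE, adjusted p = 0.00101, edgeR). TDGF1, the co-receptor Cripto, was lower at 3.19 ± 0.407 CPM with SiSNHG5 and 4.63 ± 0.175 CPM with SiNC (-0.54, adjusted p = 0.00836, edgeR). BAMBI, a receptor-like protein that lacks the kinase and dampens signalling, was lower at 17.99 ± 2.16 CPM with SiSNHG5 and 24.6 ± 1.15 CPM with SiNC (-0.46, adjusted p = 4.87e-04, edgeR). TGFBR1, the type I receptor for TGF-β, was higher at 44.5 ± 2.98 CPM with SiSNHG5 and 32.4 ± 3.0 CPM with SiNC (0.45, adjusted p = 1.01e-04, edgeR). ACVR1, a type I receptor that also binds activin, was lower (-0.40, adjusted p = 1.65e-04, edgeR).

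TGFBR3, betaglycan, the co-receptor through which inhibin binds type II receptors, averaged 12.8 ± 1.996 CPM with SiSNHG5 and 15.6 ± 0.365 CPM with SiNC (log2 fold change -0.29, adjusted p = 0.0289, edgeR). Without SiSNHG5 replicate 2 TGFBR3 had -0.17 (adjusted p = 0.162, edgeR), and it also did not pass without any 1 of the 3 SiNC libraries, with DESeq2 (adjusted p = 0.0515) or with FPKM. BMPR2, a type II receptor mainly of BMP ligands, had 0.17 (adjusted p = 0.0398, edgeR), with libraries of the groups overlapping, and did not pass without SiSNHG5 replicate 1 or 3 or SiNC replicate 2 or 3, with upper quartile scaling, with the trend on GC content removed (0.09, adjusted p = 0.257, edgeR) or with FPKM. TGFBR2 and TGFBR3L did not pass, and IGSF1 had 0 counts. Without SiSNHG5 replicate 2, TGFBR2 (0.18, adjusted p = 0.00325, edgeR) and TGFBR3L (0.94, adjusted p = 0.0109, edgeR) passed as higher. TGFBR2 also passed with the replicate number as a block (0.12, adjusted p = 0.0437, edgeR). TGFBR3L also passed with the trend on GC content removed (0.89, adjusted p = 0.0468, edgeR) and with log2(FPKM + 1) without a filter (0.17, adjusted p = 0.0317, limma).

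Of 6 genes listed as other extracellular binders, 3 were tested and 2 were lower, beside 19.9% lower over all tested genes. The 2 were listed for a follistatin-like domain, and binding of activin was not examined here. SPARC, a matrix protein with a follistatin-like domain, was lower at 1808 ± 9.38 CPM with SiSNHG5 and 2318 ± 24.3 CPM with SiNC (log2 fold change -0.36, adjusted p = 1.51e-06, edgeR). SPOCK1, a proteoglycan with the same kind of domain, was lower at 52.8 ± 2.97 CPM with SiSNHG5 and 69.8 ± 3.598 CPM with SiNC (-0.41, adjusted p = 4.18e-05, edgeR). Of the proprotein convertases, which cleave ligand precursors, PCSK7 was higher at 59.5 ± 1.501 CPM with SiSNHG5 and 41.3 ± 3.71 CPM with SiNC (0.52, adjusted p = 5.36e-06, edgeR). FURIN, the convertase known to cleave activin precursors, had 87.2 ± 1.40 CPM with SiSNHG5 and 82.8 ± 7.42 CPM with SiNC and did not pass (0.07, adjusted p = 0.410, edgeR). FURIN passed as higher with log2(FPKM + 1) (0.20, adjusted p = 0.0198, limma) and with the trend on transcript GC content removed (0.17, adjusted p = 0.0187, edgeR). It did not pass with DESeq2 or with any library left out.

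All 13 SMADs and receptor partners were tested, with 2 higher and 4 lower, beside 20.3% higher and 19.9% lower over all tested genes. The share that passed is thus near the 40.2% of all tested genes. SKIL and TGIF1, corepressors that bind SMAD complexes, were both lower. SKIL had 61.9 ± 3.71 CPM with SiSNHG5 and 89.6 ± 1.48 CPM with SiNC (log2 fold change -0.54, adjusted p = 7.70e-07, edgeR), and TGIF1 had 49.3 ± 1.70 CPM with SiSNHG5 and 66.9 ± 2.09 CPM with SiNC (-0.44, adjusted p = 7.27e-06, edgeR). SYNJ2BP, known in mouse as an activin receptor-interacting protein, was higher at 48.5 ± 1.51 CPM with SiSNHG5 and 33.8 ± 1.15 CPM with SiNC (0.52, adjusted p = 2.87e-06, edgeR). SMURF1, a ubiquitin ligase for SMADs and receptors, had -0.20 (adjusted p = 0.0236, edgeR) and did not pass without SiSNHG5 replicate 3, SiNC replicate 2 or SiNC replicate 3, or with FPKM. Its relative SMURF2 had -0.16 (adjusted p = 0.0156, edgeR) and did not pass without SiNC replicate 3. Of the transducers, SMAD3 had 0.15 (adjusted p = 0.0372, edgeR) with libraries of the groups overlapping, and did not pass without any 1 of SiSNHG5 replicates 1 and 3 and SiNC replicates 2 and 3, or with upper quartile scaling. SMAD2 had 0.00 ± 0.05 (SE), SMAD4 had 0.08 and SMAD7 had 0.04, and none of these passed.

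Among genes known to respond to SMAD2 and SMAD3, GDF15, LTBP3, CTGF and PMEPA1 were lower. No count or direction is given for this list as a whole. GDF15, a stress-induced cytokine that p53 also regulates, had 8.88 ± 0.541 CPM with SiSNHG5 and 24.2 ± 0.855 CPM with SiNC (log2 fold change -1.45, adjusted p = 2.65e-10, edgeR). LTBP3, which binds latent TGF-β, had 12.3 ± 1.30 CPM with SiSNHG5 and 20.7 ± 1.87 CPM with SiNC (-0.76, adjusted p = 4.81e-06, edgeR). CTGF, a matricellular protein that YAP also induces, had 1107 ± 81.4 CPM with SiSNHG5 and 1561 ± 98.2 CPM with SiNC (-0.50, adjusted p = 1.27e-06, edgeR), and PMEPA1, an inhibitor of SMAD signalling, had -0.34 (adjusted p = 0.00179, edgeR). MIXL1 and LEFTY2 had 0 counts in all 6 libraries. These genes answer to other regulators as well, and SMAD activity was not measured.

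**Figure D4:**
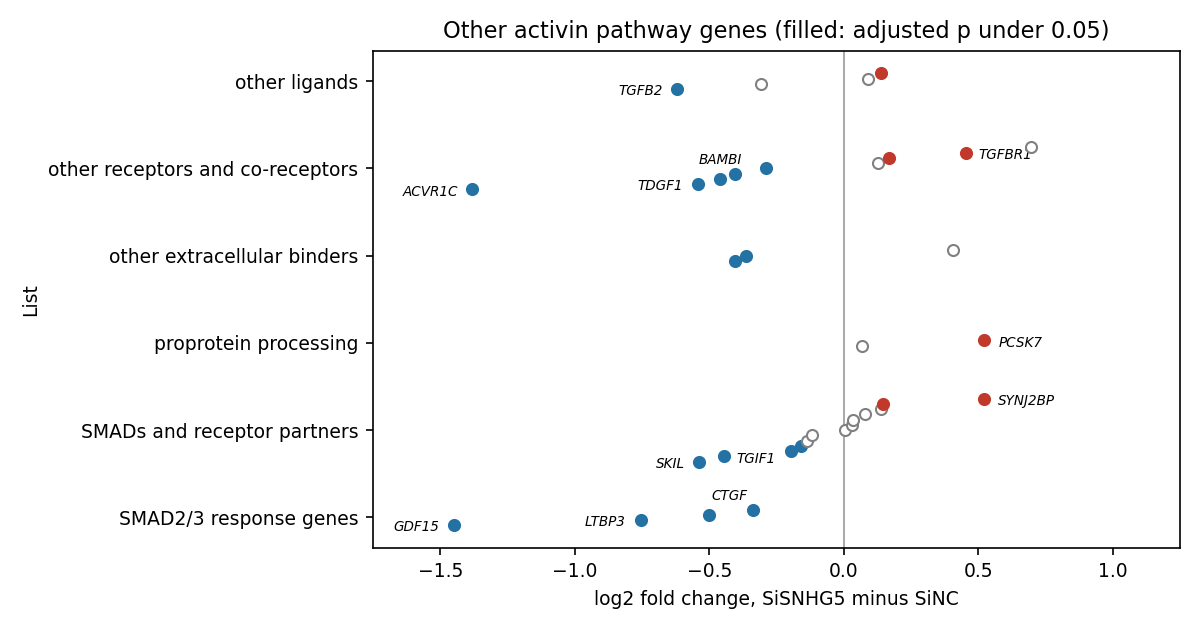
Log2 fold change (SiSNHG5 minus SiNC, edgeR) of other tested genes of the activin pathway, by list; red points passed higher, blue points passed lower and open points did not pass. GDF15 at -1.45 and ACVR1C at -1.38 lie lowest, and PCSK7 and SYNJ2BP lie highest among the passing genes shown.

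The 5 genes with profiles most like FST were taken from 4680 tested genes with a mean of at least 50 CPM, by the root mean square difference of log2 CPM over the 6 libraries after centring each gene on its mean. They were CPA4, a carboxypeptidase, at 0.118, CEMIP, a protein of hyaluronan breakdown, at 0.119, GADD45A, a DNA damage-inducible protein, at 0.136, HGSNAT, a lysosomal acetyltransferase, at 0.143, and MEST, an imprinted gene, at 0.176. CPA4 averaged 563 ± 29.4 CPM with SiSNHG5 and 1365 ± 30.7 CPM with SiNC, and CEMIP averaged 143 ± 11.3 CPM with SiSNHG5 and 383 ± 12.8 CPM with SiNC (SD, n = 3 each). Their log2 fold changes were -1.28 for CPA4, -1.42 for CEMIP, -1.17 for GADD45A, -1.26 for HGSNAT and -1.08 for MEST. The measure favours genes with a fold change like that of FST, so these values are a description.

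**Figure D5:**
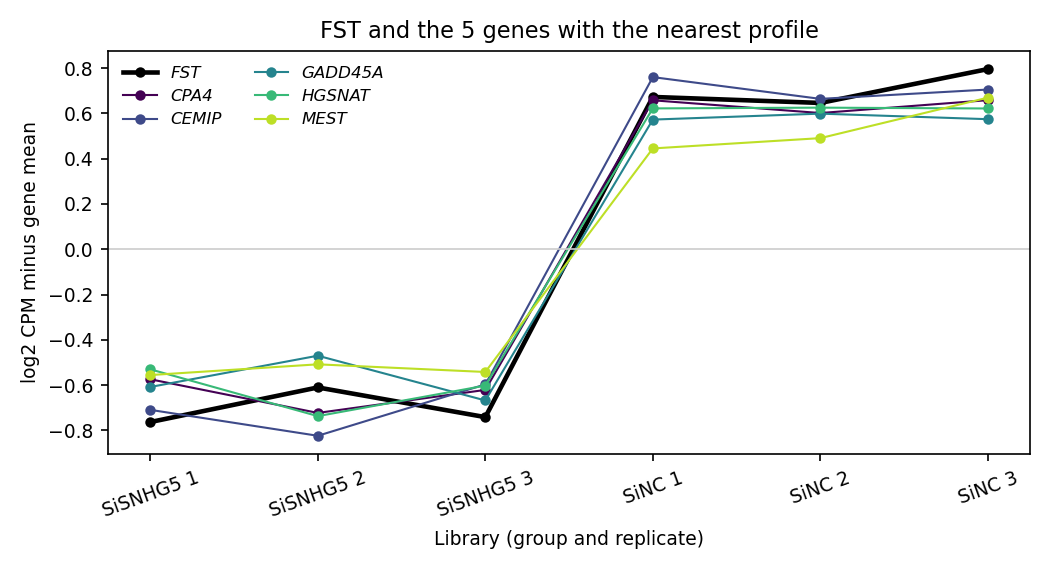
Log2 CPM minus the gene's mean over 6 libraries (y axis) in each SiSNHG5 and SiNC library (x axis), for FST (thick line) and the 5 genes nearest to it. All 6 genes are below their mean in every SiSNHG5 library and above it in every SiNC library; lines only join the points of a gene.

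The labelled cell type was checked against granulosa markers beside these results. FOXL2, the granulosa transcription factor, had 28.6 ± 4.32 CPM with SiSNHG5 and 25.3 ± 1.42 CPM with SiNC and did not pass (log2 fold change 0.17, adjusted p = 0.158, edgeR), and NR5A1, the steroidogenic factor SF-1, had 38.5 ± 0.553 CPM with SiSNHG5 and 35.8 ± 1.08 CPM with SiNC (0.10, adjusted p = 0.248, edgeR). GATA4, a gonadal transcription factor, was lower at 82.5 ± 2.45 CPM with SiSNHG5 and 106 ± 1.02 CPM with SiNC (-0.37, adjusted p = 1.92e-05, edgeR). FSHR, the receptor for follicle-stimulating hormone, was low throughout and lower at 1.47 ± 0.353 CPM with SiSNHG5 and 3.24 ± 0.244 CPM with SiNC (-1.15, adjusted p = 2.32e-04, edgeR). CYP19A1, the aromatase gene, had 22 counts with SiSNHG5 and 14 with SiNC, and AMHR2 had 0 and 3. Of 8 granulosa markers tested, 3 were lower (FSHR, GATA4 and NR5A2) and 5 did not pass. Of all tested genes 40.2% passed in either direction and 19.9% passed as lower. Counted in either direction, the share of these markers that passed is close to the share over all genes. All 3 calls were lower, however, and the list was not tested as a set. The summed level of the 11 granulosa markers was 186 to 191 CPM with SiSNHG5 and 204 to 209 CPM with SiNC, and its part in the differences of FST and INHBB was not tested. Summed markers of theca and stroma had 53.6 to 55.7 CPM with SiSNHG5 and 51.4 to 56.8 CPM with SiNC, nearly all from ACTA2 and PDGFRA, while the theca genes CYP17A1, INSL3 and LHCGR were at 0 in all 6 libraries. Immune markers summed to 27.4 to 29.2 CPM with SiSNHG5 and 22.2 to 26.3 CPM with SiNC, mostly CD68, at 26.02 ± 1.08 CPM with SiSNHG5 and 22.3 ± 2.47 CPM with SiNC (SD, n = 3 each), with PTPRC near 2 CPM and LYZ at 0. Endothelial markers summed to 15.4 to 18.4 CPM with SiSNHG5 and 32.0 to 36.0 CPM with SiNC, mostly KDR, with CDH5 at 0. Oocyte markers summed to 0.201 to 0.226 CPM with SiSNHG5 and 0.195 to 0.344 CPM with SiNC, with ZP2, BMP15 and DDX4 at 0, and epithelial markers to 1.09 to 1.85 CPM with SiSNHG5 and 1.47 to 2.03 CPM with SiNC. The part of these other markers in the results was not tested.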

How the data were processed

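Messenger RNA of 3 SiSNHG5 and 3 SiNC libraries was analysed. The deposited count table held whole-number counts per gene name, not normalised by the authors, and the deposited FPKM table held FPKM computed by the authors (program not given in the sources used here). Per the submitters' processing notes, Trimmomatic and GRCh38 were used; versions, aligner, counter and annotation are not given in the sources used here. In the counts, 27 names read as dates (0.257% of counts); they stayed in the tests and were not named.

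The counts were scaled by TMM (factors 0.998 to 1.003), filtered by filterByExpr and tested by edgeR's quasi-likelihood test (edgeR 4.0.16, R 4.3.3, 2-sided), SiSNHG5 minus SiNC, with Benjamini-Hochberg adjustment over 12508 genes; 7522 names were not tested. Genes with an adjusted p under 0.05 passed. The script was tested on simulated counts. Total counts were 18232634 to 22088913 per library; intervals and floors cover counting error only. FPKM was used to set levels of genes side by side.

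Alternatives were RLE, upper quartile and no scaling factors, no filter, DESeq2 1.42.0, limma 3.58.1 on log2(FPKM + 1) or log2(FPKM + 0.1) with a mean FPKM of at least 1 or no such filter, the replicate number as a block, and each library left out; removal of trends on transcript GC content and length was added after seeing the data.

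The 10 genes, the pathway and marker lists and all rules were chosen with earlier results of these data known. Named were the 10 genes, up to 4 passing genes per pathway list by absolute log2 fold change (the 2 of highest CPM where fewer than 2 passed), the 5 genes nearest to FST, and FOXL2, FSHR, NR5A1, GATA4 and CYP19A1. Other named genes of the lists were chosen after their values were seen. In the pathway lists 2 genes count towards the totals but are not reported or plotted here. CCN2 was matched under its older symbol CTGF. Gene positions and 3′ UTRs are from GENCODE v29, and miRNA and promoter sequences from RefSeq (GRCh38.p14), read with Python 3.11.15.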

Additional observations from a re-analysis of the deposited data

How the results depend on the processing

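FST, FSTL1 and INHBB kept their direction and passed under all 17 alternatives, and INHBA, INHBE, ACVR1B and ACVR2B passed under none of those that tested them. Of the 10 genes, the number passing higher was 2 and became 1 (INHBB) with upper quartile factors and with log2(FPKM + 1) without a filter, where FSTL3 had 0.28 (adjusted p = 0.0726, limma), and ranged from 1 to 2 with a library left out. In the pathway lists 7 genes passed higher, 4 with upper quartile factors and 4 to 10 with a library left out. Genes passing lower numbered 2488, against 1496 with log2(FPKM + 1), 1494 with log2(FPKM + 0.1) and 1564 with log2(FPKM + 1) without a filter, where fewer genes passed in all (3716, 3715 and 3581, against 5026). These 3 fits tested 10336, 10336 and 15723 genes, against 12508, so the counts are not of the same set of genes. With a library left out, 3991 to 5608 genes passed. The log2 difference of FST over INHBA plus INHBB was -1.55 with CPM, against -1.80 with FPKM. The causes were not tested. Deviations from the group means correlated at 0.0789, 0.167 and 0.0320 between same-numbered libraries, and at -0.144 to 0.0984 between differently numbered ones. These values cannot decide whether the numbers mark pairs, because deviations from a mean of 3 libraries are tied to each other. With the replicate block 5714 genes passed, against 5026 without it. The 10 genes then gave 2 higher and 2 lower, with 8 higher and 17 lower in the lists. Depth limits INHA and INHBE, with at most 17 counts in a library, and 3 libraries a group limit every test.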

Other observations

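FPKM per CPM, a quantity that would be the same in all libraries for a gene if both tables scaled its reads alike, varied between libraries. For ACVR2A it was 0.143, 0.138 and 0.155 in SiSNHG5 replicates 1, 2 and 3, and 0.164, 0.159 and 0.152 in SiNC replicates 1, 2 and 3. For FSTL3 it was 0.433, 0.444 and 0.422 in SiSNHG5 replicates 1, 2 and 3, and 0.386, 0.407 and 0.429 in SiNC replicates 1, 2 and 3. ACVR2A passed with FPKM and did not pass with counts scaled by TMM alone. On counts it passed with upper quartile scaling and with the trend on transcript GC content removed. KDR, the VEGF receptor listed as an endothelial marker, was lower at 15.3 ± 1.19 CPM with SiSNHG5 and 32.1 ± 1.81 CPM with SiNC (SD, n = 3 each; log2 fold change -1.07, adjusted p = 1.13e-08, edgeR), while CDH5 of the same list was at 0 in all 6 libraries.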
